A study of Mus musculus with 2 samples.

Results

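Cholesterol biosynthesis enzymes are described here in mouse spermatocytes, germ cells in meiosis. The set holds 8 genes, Hmgcs1, Idi1, Fdps, Fdft1, Sqle, Lss, Cyp51 and Dhcr7, out of 53801 genes in the deposited table, and each was found once by its symbol. The members were chosen by name, with no cutoff on their values. One library came from primary spermatocytes of testis with the genotype given as Smc1b knockout overexpressing SMC1alpha, and 1 from primary spermatocytes of Smc1b wild type. SMC1beta is the SMC1 subunit of cohesin found in meiosis, and SMC1alpha is its counterpart in all cells. Both libraries carry "4N" in their titles, a tag with no explanation in the labels, and the labels give neither the age and strain of the mice nor the promoter behind the added SMC1alpha. Knockout cells lacking the added SMC1alpha were not analysed here, so the loss of SMC1beta and the gain of SMC1alpha cannot be told apart.

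Cells make cholesterol from acetyl-CoA through mevalonate, the isoprenoid farnesyl diphosphate, squalene and lanosterol. When membrane sterol is low, the transcription factor SREBP2 is released from the endoplasmic reticulum and activates most genes of this chain together. In testis, Leydig cells turn cholesterol into steroid hormones, Sertoli cells supply lipid to germ cells, and male germ cells make intermediates of the pathway, among them a meiosis-activating sterol that is a product of CYP51.

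Values are TPM, each gene's share of all transcripts after scaling for gene length, so levels of different genes can be set side by side within a library. Ratios divide TPM + 1 of the labelled knockout by TPM + 1 of wild type and are given as log2, which makes differences of low genes look smaller. With 1 library per genotype no difference has a replicate check, no test or p-value is given, and a gene called higher or lower is so between these 2 libraries and no further. The read depth behind the values is unknown, and in RNA from many cells fewer cells of a type and less RNA per cell cannot be told apart. Smc1b had 62.9 TPM in the labelled knockout and 76.1 TPM in wild type, so the targeted gene was still read in the library labelled knockout, and gene-level TPM does not show whether a deleted part is present. Smc1a had 28.8 TPM in the labelled knockout and 0.51 TPM in wild type. All 14 listed spermatocyte markers reached 1 TPM in at least 1 library, and they went both ways, with 6 past 2-fold on the higher side, 1 past it on the lower, a median log2 ratio of -0.12 and sums of 2758 TPM in the labelled knockout and 2415 TPM in wild type. Sycp3, a protein of the meiotic chromosome axis, had 603 TPM in the labelled knockout and 265 TPM in wild type. Dmc1, the meiotic recombinase, had 21.3 TPM in the labelled knockout and 0.78 TPM in wild type, and Ccna1, a cyclin of meiosis, had 38.04 TPM in the labelled knockout and 185.6 TPM in wild type. Protein-coding genes held 49.0% of all TPM in the labelled knockout and 62.6% in wild type, so every share-based value of a coding gene depends on the scaling. The 3 rescalings tried raised the ratio of every gene, taken before 1 TPM is added, by between 0.29 and 0.41 on the log2 scale.

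The promoters of 5 of the 8 members are in the RefSeq table for GRCm38.p6, those of Hmgcs1, Idi1, Lss, Cyp51 and Dhcr7; Fdps, Fdft1 and Sqle are named only. Each window runs from 250 bases before to 50 bases after a transcription start, 300 bases in all, and is written 5′ to 3′ on the strand of the gene. The 3 shown are the window that held the sterol regulatory element searched for, that of the member among the 5 that was lower in the labelled knockout, and that of the lanosterol demethylase. Capitals mark the element TCACNCCAC or its inner part CACCCCAC, and CCAAT, the box bound by NF-Y, on either strand, where CCAAT on the opposite strand reads ATTGG.
Hmgcs1 (chr13:119690101-119690400, plus strand): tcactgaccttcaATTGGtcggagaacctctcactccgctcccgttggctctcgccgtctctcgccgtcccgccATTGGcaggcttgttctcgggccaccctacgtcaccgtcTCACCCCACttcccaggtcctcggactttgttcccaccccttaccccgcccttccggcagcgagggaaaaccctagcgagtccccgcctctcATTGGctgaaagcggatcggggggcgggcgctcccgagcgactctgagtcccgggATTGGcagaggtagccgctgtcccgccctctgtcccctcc
Idi1 (chr13:8885356-8885655, plus strand): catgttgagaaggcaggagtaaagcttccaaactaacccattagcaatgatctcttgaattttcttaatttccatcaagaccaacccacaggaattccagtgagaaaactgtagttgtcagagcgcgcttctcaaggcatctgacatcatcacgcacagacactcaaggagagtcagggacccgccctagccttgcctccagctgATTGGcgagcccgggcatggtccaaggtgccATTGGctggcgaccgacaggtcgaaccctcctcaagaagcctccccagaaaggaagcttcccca
Cyp51 (chr5:4104648-4104947, minus strand): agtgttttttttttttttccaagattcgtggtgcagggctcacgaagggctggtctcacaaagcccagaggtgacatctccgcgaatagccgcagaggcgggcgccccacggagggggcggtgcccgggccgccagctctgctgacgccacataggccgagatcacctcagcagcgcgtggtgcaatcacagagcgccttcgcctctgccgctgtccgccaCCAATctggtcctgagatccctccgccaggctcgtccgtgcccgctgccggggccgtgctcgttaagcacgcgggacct

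Hmgcs1 held TCACCCCAC, 137 bases before the start, and 4 copies of the CCAAT box. TCACNCCAC was found in 1 of the 7 windows of the members and in 1.24% of all 32851 windows of the table, and CACCCCAC, which overlaps it, in 1 of 7 and in 2.87%. The CCAAT box was more widespread, in 5 of the 7 windows of the members against 37.4% of all windows. Idi1 held 2 copies, 45 and 14 bases before the start, Cyp51 held 1 at 29 bases before it and Lss 1 at 62 bases before it, while for Dhcr7 only the third of its 3 windows held copies. GGGCGG, the box bound by Sp1, was in 6 of the 7 windows, against 35.7% of all. The full cAMP response element TGACGTCA was in 0 of 7 windows and 1.79% of all, its shorter form TGACG in 2 of 7, those of Hmgcs1 and Cyp51, and 20.8% of all, and the E-box CACGTG in 1 of 7, a window of Dhcr7, and 7.15% of all. Both strands were searched for every motif. A match describes letters in a window and says nothing of binding. Only these fixed strings were searched, so a window without a match may still hold an element in another form.

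Across the set, 6 of the 8 enzymes were higher in the labelled knockout, of which Sqle was nearly equal at a log2 ratio of 0.02. The other 2, Idi1 and Fdft1, were lower, and they had the highest levels of the set in wild type. On the log2(TPM + 1) scale 0 members passed 2-fold on the higher side and 1, Fdft1, on the lower side. A gene entered the comparison if either library had 1 TPM or more of it. Of the 15000 protein-coding genes that did, 18.7% passed 2-fold on the higher side and 16.5% on the lower, and of all 23148 such genes 15.0% and 19.3%. By any amount, 48.4% of the coding genes and 41.4% of all genes were higher. All 8 members passed that filter. Counts of 0 and 1 among 8 genes are near what these shares give, so neither count is a result about the set. The median ratio of the members was 0.65, which was 0.70 above the protein-coding median of -0.05. Their single ratios ran between -1.22 and 0.94, so the median does not describe every enzyme.

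**Figure D1:**
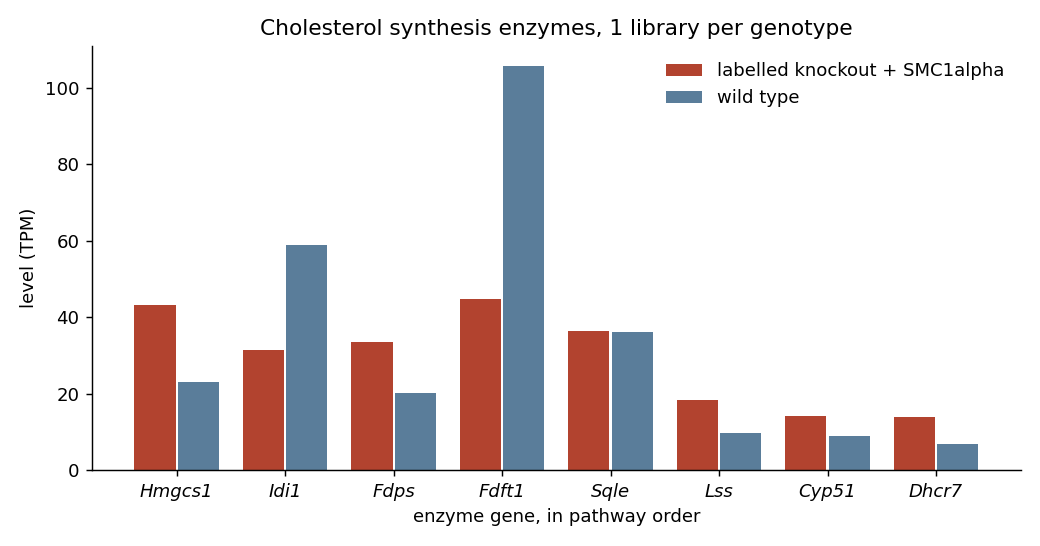
Level in TPM (vertical axis, from 0) of each of the 8 enzyme genes in pathway order (horizontal axis), with the labelled knockout at the left and wild type at the right of each pair; each bar is 1 library, so there are no error bars. Fdft1 at 44.8 TPM in the labelled knockout and 105.6 TPM in wild type and Idi1 at 31.5 TPM in the labelled knockout and 58.9 TPM in wild type are the pairs with the taller wild-type bar, and the bars of Sqle are nearly equal.

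Hmgcs1 is the cytosolic HMG-CoA synthase, which joins acetoacetyl-CoA and acetyl-CoA early in the chain. It is ENSMUSG00000093930 on mm10 chromosome 13, 119690379 to 119708260, plus strand. Hmgcs1 had 43.1 TPM in the labelled knockout and 23.1 TPM in wild type, 1.86-fold higher, with a log2 ratio of 0.87. Of the coding genes, 21.8% had a higher ratio than Hmgcs1. Its level lay above that of 81.8% of the coding genes in the labelled knockout and of 66.5% in wild type, and it was the most abundant member but one in the labelled knockout and number 4 of 8 in wild type. An antisense gene, Gm48342, overlaps it, with 2.16 TPM in the labelled knockout and 1.83 TPM in wild type.

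Idi1 and Fdps act in sequence on the 5-carbon isoprenoids, and their genes went opposite ways. Idi1 (ENSMUSG00000058258; mm10 chromosome 13, 8885501 to 8892451, plus strand) encodes the isomerase that turns isopentenyl diphosphate into dimethylallyl diphosphate. Idi1 had 31.5 TPM in the labelled knockout and 58.9 TPM in wild type, a level 0.536 times that of wild type and a log2 ratio of -0.88. Fdps (ENSMUSG00000059743; mm10 chromosome 3, 89093588 to 89101959, minus strand) encodes farnesyl diphosphate synthase, which builds the precursor of squalene and of prenyl groups on proteins. Fdps had 33.4 TPM in the labelled knockout and 20.2 TPM in wild type, 1.65-fold higher, with a log2 ratio of 0.70. The level of Idi1 over that of Fdps was therefore 0.944 in the labelled knockout and 2.91 in wild type. Of the coding genes, 80.4% had a higher ratio than Idi1 and 26.0% a higher ratio than Fdps.

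Sequence shared with other genes bears on the certainty of Idi1 and Fdps. Of the 31-base words in the GENCODE M21 transcripts of Idi1, 18.4% also occur in Gm13502, which had 12.2 TPM in the labelled knockout and 22.9 TPM in wild type. This gene was thus lower in the same library as Idi1, and no source used here says how the authors' quantification divided shared reads between them. Of the words of Fdps, 24.6% occur in Gm43738, which overlaps it on the same strand and had 0.075 TPM in the labelled knockout while wild type listed it at 0. Of those of Fdft1, 14.3% occur in Gm6781, at 0.12 TPM in the labelled knockout and 0.15 TPM in wild type. The other 5 members shared between 0.58% and 2.75% of their words with other genes. The paralogue Idi2 was at 0.256 TPM in the labelled knockout and 0.483 TPM in wild type, below 1 TPM in both libraries.

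Fdft1, Sqle and Lss carry the chain from farnesyl diphosphate to lanosterol, and each of the 3 genes behaved differently. Fdft1 (ENSMUSG00000021273; mm10 chromosome 14, 63145150 to 63179578, minus strand) encodes squalene synthase, which commits farnesyl diphosphate to sterols. Fdft1 had 44.8 TPM in the labelled knockout and 105.6 TPM in wild type, 0.424 times the wild-type level, with a log2 ratio of -1.22. Of the coding genes, 88.4% had a higher ratio. The 3' part of Fdft1 overlaps 774 bases of Ctsb, the gene of the lysosomal protease cathepsin B on the opposite strand, and Ctsb had 28.5 TPM in the labelled knockout and 3.40 TPM in wild type, so the neighbours had opposite directions.

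Sqle and Lss follow. Sqle (ENSMUSG00000022351; mm10 chromosome 15, 59315077 to 59331192, plus strand) encodes squalene epoxidase, which adds the oxygen that becomes the hydroxyl group of cholesterol. Sqle had 36.5 TPM in the labelled knockout and 36.0 TPM in wild type, a ratio of 1.01 in TPM and 0.02 on the log2 scale. It was the third most abundant member in both libraries, and 47.8% of the coding genes had a higher ratio. Lss (ENSMUSG00000033105; mm10 chromosome 10, 76531588 to 76557138, plus strand) encodes lanosterol synthase, which folds the epoxide into the sterol rings. Lss had 18.4 TPM in the labelled knockout and 9.84 TPM in wild type, 1.87-fold higher, with a log2 ratio of 0.84. An antisense gene, 4930483K19Rik, overlaps Lss over 11268 bases and had 0.76 TPM in the labelled knockout and 1.45 TPM in wild type. The level of Fdft1 over that of Sqle was 1.23 in the labelled knockout and 2.93 in wild type, and that of Fdft1 over Lss was 2.43 in the labelled knockout and 10.7 in wild type.

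Cyp51 and Dhcr7 act after lanosterol and were the 2 least abundant members in both libraries. Cyp51 (ENSMUSG00000001467; mm10 chromosome 5, 4081145 to 4104746, minus strand) encodes the cytochrome P450 that removes a methyl group from lanosterol. Cyp51 had 14.2 TPM in the labelled knockout and 8.93 TPM in wild type, 1.58-fold higher, with a log2 ratio of 0.61. Its 3' end overlaps Akap9 on the opposite strand over 166 bases, and Akap9 was at 23.4 TPM in the labelled knockout and 19.8 TPM in wild type. Dhcr7 (ENSMUSG00000058454; mm10 chromosome 7, 143823145 to 143848410, plus strand) encodes the reductase that makes cholesterol from its 7-dehydro precursor. Dhcr7 had 13.8 TPM in the labelled knockout and 6.74 TPM in wild type. This was 2.05-fold higher in TPM, while its log2 ratio of 0.94 after adding 1 TPM stayed below 2-fold, and of the coding genes 20.3% had a higher ratio. It had the highest ratio of the 8 members and the lowest level in each library.

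The order of the 8 levels and their spacing differed between the libraries. In the labelled knockout the order from high to low was Fdft1, Hmgcs1, Sqle, Fdps, Idi1, Lss, Cyp51 and Dhcr7, and in wild type it was Fdft1, Idi1, Sqle, Hmgcs1, Fdps, Lss, Cyp51 and Dhcr7. Only the places of Hmgcs1, Fdps and Idi1 differed, and without replicates it is not known which neighbours in either order differ beyond their spread. The range of the levels was narrower in the labelled knockout, where the highest was 3.24 times the lowest, against 15.7 times in wild type. In each library these ends were Fdft1 and Dhcr7. Not every pair came closer, and Hmgcs1 over Dhcr7 was 3.12 in the labelled knockout and 3.43 in wild type. Such ratios within a library do not depend on its scaling. The median level of the 8 was 32.5 TPM in the labelled knockout and 21.7 TPM in wild type. Their summed level was 235.7 TPM in the labelled knockout and 269.3 TPM in wild type, lower on the deposited scale but higher under each of the 3 rescalings, where the log2 ratio of the sums was between 0.10 and 0.22. Fdft1 alone held 19.0% of this sum in the labelled knockout and 39.2% in wild type, and Idi1 13.4% in the labelled knockout and 21.9% in wild type. Hmgcs1 held 18.3% in the labelled knockout and 8.6% in wild type, Fdps 14.2% in the labelled knockout and 7.5% in wild type, and Sqle 15.5% in the labelled knockout and 13.4% in wild type. Lss held 7.8% in the labelled knockout and 3.7% in wild type, Cyp51 6.0% in the labelled knockout and 3.3% in wild type, and Dhcr7 5.9% in the labelled knockout and 2.5% in wild type.

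**Figure D2:**
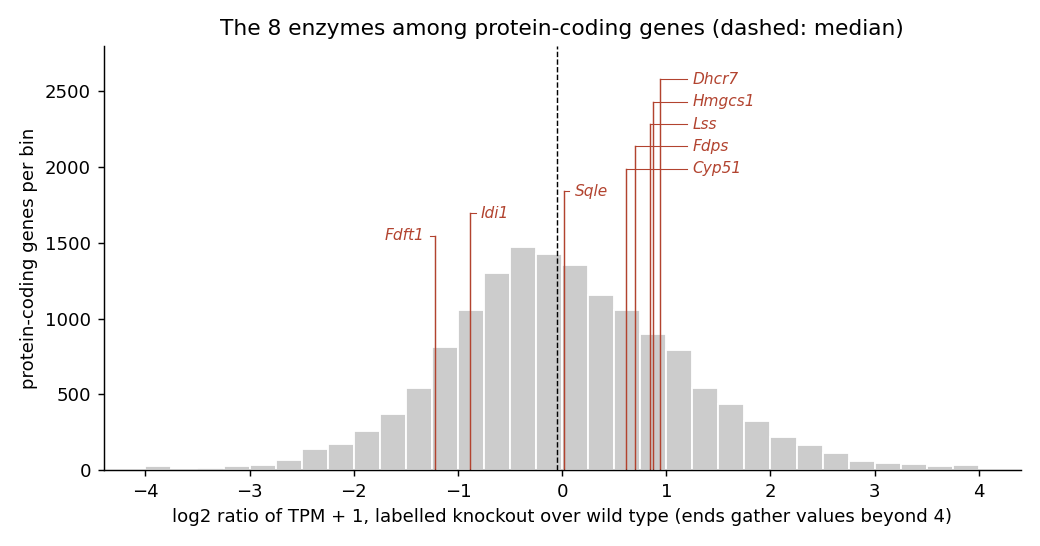
Number of protein-coding genes at 1 TPM or more per bin (vertical axis) by their log2 ratio of TPM + 1, labelled knockout over wild type (horizontal axis), with each of the 8 enzymes as a labelled line and the coding median of -0.05 dashed. The other 5 enzymes gather between 0.61 and 0.94, Sqle sits at 0.02, and Idi1 and Fdft1 lie on the other side at -0.88 and -1.22.

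Gene length and base composition were compared as features that the choice of members did not use. The members were between 3505 and 10787 bases long, with a median of 4504 bases, against a median of 3978 bases for the coding genes at 1 TPM or more. Their G+C content was between 40.7% and 50.8%, with a median of 45.4%, against 45.5% for the coding genes. The medians were thus nearly equal in G+C content, while in length that of the members was the larger. The 8 genes lie on 7 chromosomes, with Hmgcs1 and Idi1 both on chromosome 13, and none is X-linked.

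The scaling of the 2 columns decided how many members passed 2-fold. All 3 rescalings raised the ratio of each of the 8 members, and a pseudocount cannot change a sign. Only Idi1 and Fdft1 could therefore have changed direction, and neither did. Sqle, at 0.02 as deposited, was not tried under a downward shift. Over the deposited scale, the 3 rescalings and pseudocounts of 0.1 and 5 TPM, the log2 ratio of Hmgcs1 lay between 0.77 and 1.28, that of Fdps between 0.61 and 1.11, that of Lss between 0.66 and 1.26, that of Cyp51 between 0.46 and 1.02 and that of Dhcr7 between 0.68 and 1.35. That of Sqle lay between 0.02 and 0.42. Idi1 stayed negative, between -0.90 and -0.49, and Fdft1 between -1.24 and -0.82. Fdft1 was at least 2-fold lower on the deposited scale and with either pseudocount and within 2-fold under the 3 rescalings, which also brought members past 2-fold on the higher side. These were 3 of 8 by the trimmed mean, where 24.3% of the coding genes passed on that side and 11.1% on the lower. They were 4 of 8 over protein-coding genes, against 27.2% of the coding genes on the higher side and 10.6% on the lower, and 5 of 8 without the most abundant genes, against 28.2% and 9.79%. The rescalings thus raised the share of all coding genes as well, and no count is read as a result about the set. The difference between the median of the members and that of the coding genes was between 0.69 and 0.70 under these rescalings. A near-constant shift moves both medians alike, so this is no check of the difference. It was 0.74 with a pseudocount of 0.1 TPM and 0.56 with one of 5 TPM. With no filter it was 0.65, and with a filter of 5 TPM it was 0.83.

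**Figure D3:**
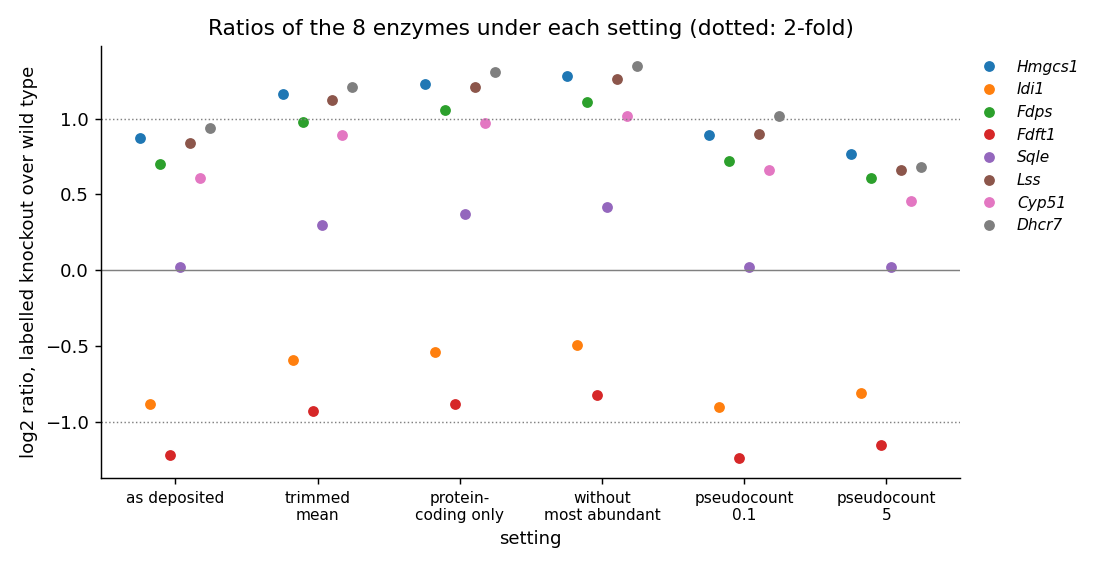
Log2 ratio, labelled knockout over wild type (vertical axis), of each of the 8 enzymes under the deposited scale, 3 rescalings and 2 other pseudocounts (horizontal axis); each point is 1 gene under 1 setting and dotted lines mark 2-fold. Idi1 and Fdft1 stay below 0 and the other 6 at or above 0.02 throughout, while the dotted line on the higher side is passed by between 0 and 5 genes.

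The other enzymes of the pathway show where the 8 sit along the chain. Of 12 further genes listed, 11 were in the table and passed 1 TPM, and of these 5 passed 2-fold on the higher side and 0 on the lower, with a median log2 ratio of 0.99. Without the X-linked Nsdhl and Ebp, a choice made after the values were seen, 3 of 9 were at least 2-fold higher and the median was 0.68. The shares of the coding genes past 2-fold were 18.7% on the higher side and 16.5% on the lower. At this threshold on the deposited scale, the 5 enzymes that passed on the higher side all act after lanosterol. Ebp, a sterol isomerase, had 9.77 TPM in the labelled knockout and 0.233 TPM in wild type, and Msmo1, the oxidase of the methyl groups next to the hydroxyl, had 21.3 TPM in the labelled knockout and 2.71 TPM in wild type. Nsdhl, a decarboxylase, was at 5.38 TPM in the labelled knockout and 0.375 TPM in wild type, Hsd17b7, a keto reductase, at 3.34 TPM in the labelled knockout and 0.446 TPM in wild type, and Sc5d, a desaturase, at 18.6 TPM in the labelled knockout and 8.19 TPM in wild type. These 5 were picked for passing 2-fold, and their ratios ran between 1.10 and 3.13. In the same stretch the members Cyp51 and Dhcr7 had ratios of 0.61 and 0.94. The sterol reductase genes Tm7sf2 and Lbr, the remaining enzymes listed there, had 0.35 and 0.66. Mvd, the decarboxylase just before Idi1, was at 3.27 TPM in the labelled knockout and 1.15 TPM in wild type, so the isomerase gene was lower beside neighbours on both sides that were higher. Mvd was 2.86-fold higher in TPM, and its log2 ratio was 0.99 after adding 1 TPM. Under the 3 rescalings that ratio was between 1.22 and 1.45, so which stretches hold genes past 2-fold depends on the scale.

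Grouped by position in the textbook order, a grouping made with the values known, the share of the summed TPM of the 19 enzymes reported was larger at the end of the chain in the labelled knockout. The 9 genes from lanosterol to cholesterol held 44.2% of that sum in the labelled knockout and 25.7% in wild type, with Lbr, a sterol reductase that is also a receptor of the nuclear lamina, the largest part at 79.4 TPM in the labelled knockout and 49.8 TPM in wild type. The 3 from farnesyl diphosphate to lanosterol, all of them members, held 23.4% in the labelled knockout and 41.1% in wild type. The 5 from mevalonate to farnesyl diphosphate held 20.1% in the labelled knockout and 25.0% in wild type, and Acat2, an acetyl-CoA acetyltransferase, and Hmgcs1 together 12.3% in the labelled knockout and 8.2% in wild type. All 9 genes of the last stretch were higher in the labelled knockout, with ratios between 0.35 and 3.13. Among the 10 before it 8 were higher, Sqle by a log2 ratio of 0.02 only. For comparison, 48.4% of the coding genes and 41.4% of all genes at 1 TPM or more were higher by any amount.

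**Figure D4:**
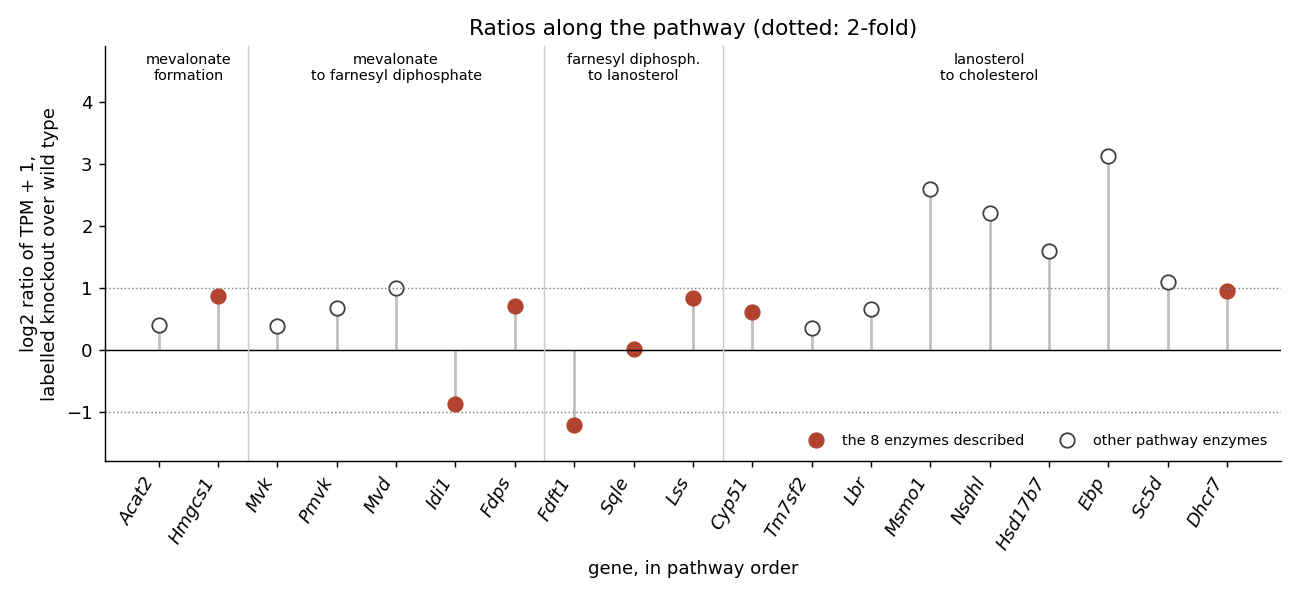
Log2 ratio of TPM + 1, labelled knockout over wild type (vertical axis), for the 19 enzymes reported in pathway order (horizontal axis), filled for the 8 enzymes described and open for the other 11, with dotted lines at 2-fold and grey lines between stretches of the pathway. The values past 2-fold on the higher side, between 1.10 and 3.13, are open points in the stretch from lanosterol to cholesterol, and Idi1 and Fdft1 are the points below 0. Mvd, an open point before that stretch, lies just under the dotted line at 0.99.

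Genes that control the pathway or share its regulator were mixed, as the members were. Of 11 genes of sterol sensing and SREBP processing, 3 passed 2-fold on the higher side and 1 on the lower, with a median log2 ratio of 0.32. Past 2-fold were 18.7% of the coding genes on the higher side and 16.5% on the lower. Srebf2, which encodes SREBP2, had 12.0 TPM in the labelled knockout and 10.4 TPM in wild type, a ratio of 0.20. Scap, the sterol sensor that escorts SREBP, was at 15.1 TPM in the labelled knockout and 0.946 TPM in wild type, Insig1, which retains it, at 17.9 TPM in the labelled knockout and 2.91 TPM in wild type, and Srebf1 at 15.4 TPM in the labelled knockout and 3.92 TPM in wild type. Rnf139, a ubiquitin ligase of the sterol-sensing system, was at 63.3 TPM in the labelled knockout and 149.6 TPM in wild type, a ratio of -1.23 beside -1.22 for Fdft1. Of the 4 other SREBP2 targets that passed 1 TPM out of 6 listed, 1 was at least 2-fold higher and 1 lower. Fabp3, a fatty acid binding protein, was at 102.1 TPM in the labelled knockout and 9.27 TPM in wild type, while Tmem97 was at 265.0 TPM in the labelled knockout and 532.7 TPM in wild type.

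Fatty acid genes, which share the SREBP family as regulators, had a higher median than the 8 enzymes, 1.54, with 7 of 11 at least 2-fold higher and 0 lower. For this and the next 2 lists, the shares of the coding genes are 18.7% higher and 16.5% lower. Scd2, a desaturase, had 27.4 TPM in the labelled knockout and 1.99 TPM in wild type, and Fasn, fatty acid synthase, had 33.5 TPM in the labelled knockout and 10.4 TPM in wild type. Of 12 genes of cholesterol uptake, storage and traffic that passed, out of 14, 4 were at least 2-fold higher and 1 lower, with a median of 0.53. Tspo, a mitochondrial outer membrane protein, was at 7.98 TPM in the labelled knockout and 0.956 TPM in wild type and Lipe, hormone-sensitive lipase, at 8.11 TPM in the labelled knockout and 18.7 TPM in wild type. Of 8 genes of sterol efflux and the LXR receptors, 4 were higher and 1 lower, with a median of 1.10, among them Apoe at 44.1 TPM in the labelled knockout and 2.08 TPM in wild type, Abca1, the cholesterol exporter, at 16.5 TPM in the labelled knockout and 1.11 TPM in wild type, and Nr1h3, which encodes LXRalpha, at 2.96 TPM in the labelled knockout and 12.3 TPM in wild type.

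Markers of other testis cells moved between the same 2 libraries, and their part in the values of the 8 enzymes was not tested. Of 11 Leydig markers 10 were at least 2-fold higher, and their summed level was 1884 TPM in the labelled knockout and 125.3 TPM in wild type, or 531.3 TPM in the labelled knockout and 82.0 TPM in wild type without Insl3. None was at 0 in either library, and Cyp11a1, the enzyme that starts steroid synthesis from cholesterol, was at 35.1 TPM in the labelled knockout and 3.18 TPM in wild type. Of 15 Sertoli markers 14 passed 1 TPM and 12 were at least 2-fold higher, with sums of 496.1 TPM in the labelled knockout and 81.3 TPM in wild type and none at 0. Of 12 spermatogonia markers 9 were at least 2-fold higher, with sums of 88.4 TPM in the labelled knockout and 13.3 TPM in wild type and none at 0. Of 10 macrophage markers 8 passed and 7 were at least 2-fold higher, with sums of 33.1 TPM in the labelled knockout and 3.07 TPM in wild type, and in wild type both C1qa and Fcer1g were listed at 0. The 6 peritubular myoid markers that passed, out of 7, had 3 higher and 1 lower, with sums of 51.0 TPM in the labelled knockout and 30.2 TPM in wild type, and the 3 of 6 endothelial markers that passed were within 2-fold, with sums of 8.998 TPM in the labelled knockout and 8.131 TPM in wild type. In the other direction, 14 of 15 spermatid markers were at least 2-fold lower, with sums of 204.3 TPM in the labelled knockout and 2969 TPM in wild type and none at 0. Hmgcs1, Fdps, Lss, Cyp51 and Dhcr7 were higher in the library with more Leydig, Sertoli, spermatogonia and macrophage marker RNA, and Idi1 and Fdft1 in the library with more spermatid marker RNA. With 2 libraries every gene pairs with one or the other in this way. By any amount, 48.4% of the coding genes were higher in the labelled knockout, and past 2-fold 18.7% were higher and 16.5% lower.

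**Figure D5:**
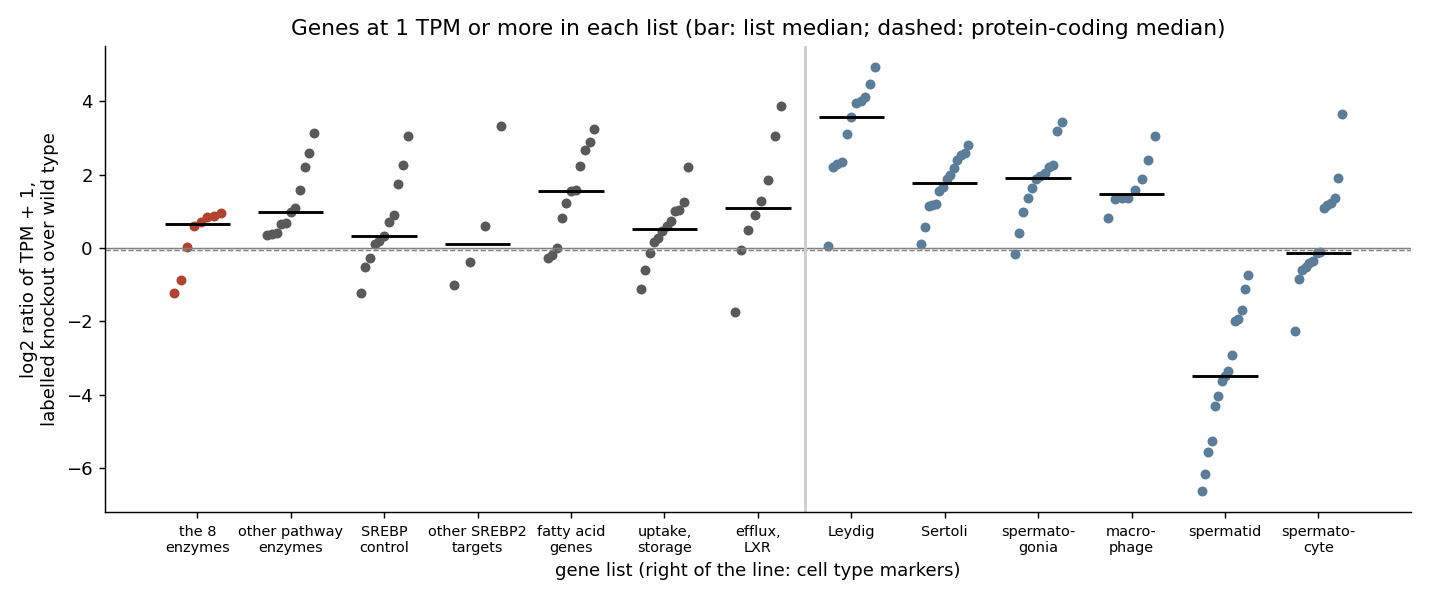
Log2 ratio of TPM + 1, labelled knockout over wild type (vertical axis), of each gene at 1 TPM or more in 7 lists of sterol and lipid genes and 6 lists of cell type markers (horizontal axis); bars are list medians and the dashed line is the coding median of -0.05. The 8 enzymes span -1.22 to 0.94 around a median of 0.65, between the spermatid markers with a median of -3.48 and the Leydig markers with one of 3.58.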

How the data were processed

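RNA was measured in 1 library per genotype. Per the labels' protocols, ribosomal RNA was depleted, libraries were strand-specific, and single-end reads of 75 bases were asked for to at least 40000000 per library. The deposited TPM values sum to 1000000 per library, as computed by the authors, and the table's G+C content is a deposited percent per gene. The submitters' processing notes name kallisto 0.43.1, GSNAP, TopHat, bcl2fastq 2.19.1 and the build mm10; no source used here gives their roles, the filters or the annotation. Coordinates are the table's, and all 8 members had the same start and end in GENCODE M21.

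TPM keeps no read counts, so no interval, detection limit or count test was possible. Ratios used a pseudocount of 1 TPM, a filter of 1 TPM in at least 1 library and a 2-fold threshold. For repeated symbols the more abundant gene was taken. Named were all members, Smc1b and Smc1a. In each list up to 4 genes furthest on the median's side of 0 were named, and up to 2 on the opposite side. In marker lists it was up to 2 in all, and those listed at 0. Mvd, Lbr, Tm7sf2, Sc5d, Srebf2, Cyp11a1, Fasn, Acat2, Idi2, Ggps1, Fdx1 and Sycp3 were named outside that rule. They, and the genes that overlap a member or share its sequence, were named for their role or after their values were seen. One listed enzyme, Faxdc2, was not matched, and a few genes of these lists are not reported here and enter no count. Members and lists were chosen with earlier results of these data known. With 2 libraries no search for genes of like pattern was made. Alternatives were 1.5-fold and 4-fold thresholds, no filter or one of 5 TPM, a pseudocount of 0.1 or 5 TPM, and 3 rescalings, by the trimmed mean (30% off each end), over protein-coding genes, and with mitochondrial and the 20 most abundant genes left out. Figures were drawn with Matplotlib 3.10.9 and values computed with pandas 2.3.3 and NumPy 2.4.6 in Python 3.11.15.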

Additional observations from a re-analysis of the deposited data

How the results depend on the processing

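With 1 library per genotype no replicate could be left out, and no paired analysis was possible because each group holds 1 sample. The direction of all 8 members was kept under each setting tried. Only Idi1 and Fdft1 could have changed it, as every rescaling raised the ratios of the members. The cause of the changes below was not tested, beyond the settings' own construction. Before 1 TPM is added, each rescaling shifts the log2 ratio of every gene it keeps by the same amount. With TPM + 1 the shift differs between genes. The log2 ratio of Ebp went from 3.13 as deposited to 3.40 by the trimmed mean and 3.93 over protein-coding genes. Rescaling by the trimmed mean moved the log2 ratios of Hmgcs1, Lss, Dhcr7 and Fdft1 across 2-fold, to 1.16, 1.12, 1.21 and -0.93. Rescaling over protein-coding genes gave 1.23 for Hmgcs1, 1.06 for Fdps, 1.21 for Lss, 1.31 for Dhcr7 and -0.88 for Fdft1, and rescaling with mitochondrial and the 20 most abundant genes left out gave 1.28, 1.11, 1.26, 1.35 and -0.82 for the same genes and 1.02 for Cyp51. Members at least 2-fold higher were then 3, 4 and 5, in place of 0, beside 24.3%, 27.2% and 28.2% of the coding genes, and members at least 2-fold lower 0 under each, in place of 1, beside 11.1%, 10.6% and 9.79%. The median of the members was 1.01 over protein-coding genes and 1.06 without the most abundant genes. The log2 ratio of the summed TPM, -0.19 as deposited, was 0.10, 0.16 and 0.22. Under these 3 rescalings SREBP control, other SREBP2 target and uptake genes had 0 at least 2-fold lower, in place of 1 each, and the isoprenoid branch had 3 at least 2-fold higher, in place of 1. Under the last 2, SREBP control had 5 higher, in place of 3, and the other pathway enzymes 8, in place of 5. Under the last, 2 other SREBP2 targets were higher, in place of 1.

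With a pseudocount of 0.1 TPM Dhcr7 had a log2 ratio of 1.02, so 1 member was at least 2-fold higher, beside 23.9% of the coding genes, and 1 isoprenoid gene was lower. With 5 TPM the genes at least 2-fold higher fell to 2 of the other pathway enzymes, 2 of the efflux genes, 1 of the uptake genes and 0 of the isoprenoid branch, and the lower ones to 0 of the other SREBP2 targets and uptake genes. At 1.5-fold, 5 members were higher and 2 lower, beside 29.2% and 28.8% of the coding genes, 5 SREBP control genes, 8 other pathway enzymes and 2 other SREBP2 targets were higher, 2 uptake genes were lower, and the isoprenoid branch had 3 higher and 2 lower. At 4-fold, 0 members, beside 3.28% of the coding genes, and 0 SREBP control, other SREBP2 target, uptake and efflux genes were lower, and higher were 4 fatty acid genes, 3 other pathway enzymes, 2 efflux genes, 1 uptake gene and 0 of the isoprenoid branch. With a filter of 5 TPM, 1 uptake gene and 0 isoprenoid genes were higher. Leaving out the X-linked Nsdhl and Ebp, a choice made after seeing the data, left 3 other pathway enzymes at least 2-fold higher, in place of 5. Depth is unknown, so how precise the low values are, such as those of Ebp and Nsdhl in wild type, cannot be stated.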

Other observations

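Genes that take isoprenoids away from the sterol chain went both ways between the 2 libraries. Of 11 listed, 1 passed 2-fold on the higher side and 0 on the lower in the labelled knockout, while at 1.5-fold 3 were higher and 2 lower, and under each of the 3 rescalings 3 were at least 2-fold higher. The median log2 ratio of the 11 was 0.04, between the ratios of -0.88 for Idi1 and 0.70 for Fdps. Ggps1, which extends farnesyl diphosphate, had 20.9 TPM in the labelled knockout and 20.4 TPM in wild type. Trit1, which modifies transfer RNA with an isoprenoid, was at 3.72 TPM in the labelled knockout and 1.17 TPM in wild type, Coq2 and Pdss1, of ubiquinone synthesis, at 21.9 TPM in the labelled knockout and 11.8 TPM in wild type and at 8.12 TPM in the labelled knockout and 4.14 TPM in wild type, and Fntb, a subunit of protein farnesyltransferase, at 5.19 TPM in the labelled knockout and 10.6 TPM in wild type. The 11 and their median include Fdx1, an electron carrier of steroid synthesis that is no isoprenoid gene and is on the Leydig list too. Fdx1 was at 54.2 TPM in the labelled knockout and 52.4 TPM in wild type.

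Of 3 paralogues of pathway enzymes, Acat1 and Acat3 passed 1 TPM and 0 were past 2-fold in either direction. Acat1 had 23.4 TPM in the labelled knockout and 19.9 TPM in wild type, and Acat3 had 3.52 TPM in the labelled knockout and 2.82 TPM in wild type.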
